A study of Mus musculus with 4 samples.

Results

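The 10 genes described here code for chaperones, oxidoreductases and regulators of the endoplasmic reticulum (ER) that are in common use as readouts of ER stress. They are *Hspa5*, *Hsp90b1*, *Calr*, *Sdf2l1* and *Dnajb9* (chaperones and cochaperones), *Pdia4*, *Ero1a* and *Ero1b* (oxidoreductases), *Herpud1* (degradation of misfolded ER proteins) and *Xbp1* (a transcription factor). They were chosen by name, as known targets of the unfolded protein response and as folding enzymes of the ER, and they are 10 of the 39179 genes in the count files. All 10 reached at least 6.30 CPM (read counts scaled to the library size after TMM normalization) in every library and were among the 11483 genes tested. *Ero1a* and *Ero1b* stand under the older symbols *Ero1l* and *Ero1lb* in the annotation used.

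RNA was sequenced from parental B16F1 cells, a mouse melanoma cell line grown on rigid 2D dishes, and from tumor repopulating cells (TRCs), which are the spheroids that grew out of individual B16F1 cells in soft fibrin gels. The control group holds 2 libraries and the TRC group holds 2, and the labels number them 1 and 3 in each group. The gels had a stiffness of 90 Pa and the TRCs were taken out on day 5, so dimension, stiffness, matrix and the selection of cells that grow in the gel change together and cannot be told apart. Both groups come from the same untreated cell line, and no source used here says that libraries of a group came from separate cultures, so the p-values measure the spread between these libraries, which may be technical.

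The ER folds the proteins that a cell secretes or places in its membranes. HSPA5 (BiP), an Hsp70 chaperone, holds unfolded chains and also keeps the stress sensors IRE1, PERK and ATF6 inactive. When unfolded chains build up, IRE1 splices *Xbp1* mRNA into the form that codes for the active factor, ATF6 is cut to release a factor, PERK slows translation and favours ATF4, and these arms of the unfolded protein response raise chaperones, folding enzymes and degradation factors together. Disulfide bonds are formed by the protein disulfide isomerases, whose electrons the ERO1 oxidases pass on to oxygen, and *Ero1a* is also known as a gene induced in hypoxia.

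The files hold between 35948295 and 43511554 counts on genes per library, and 3 counts correspond to between 0.0675 and 0.0850 CPM, a floor that covers counting error only.  The control libraries differed from each other in stress genes. *Ddit3*, which codes for the stress factor CHOP, had 139 CPM in control 1 and 18.8 CPM in control 3, and all 13 genes of a list of ATF4 and CHOP targets were higher in control 1 than in control 3. In the opposite direction, 8 of the 10 ER stress genes were higher in control 3 than in control 1, where 50.4% of all genes tested were. Values of the 10 genes that change sign or call without either control library are therefore also given without it. Melanocytic markers were at a summed level of 15712 to 26669 CPM, leukocyte markers at 1.66 to 4.93 CPM with *Ptprc*, *Cd3e*, *Itgam* and *Adgre1* at 0 in every library, and fibroblast and endothelial markers at 3.05 to 11.5 CPM with *Cdh5* and *Kdr* at 0.

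*Ero1a* was upregulated 9.05-fold in TRCs, and it was the only 1 of the 10 genes that passed an FDR of 0.05 in edgeR's exact test. Upregulation at this threshold was found for 8.81% of all genes tested and downregulation for 7.05%. *Hspa5*, *Hsp90b1* and *Calr*, the abundant chaperones of the ER, overlapped between the groups, with fold changes of 0.922, 1.14 and 0.876. *Xbp1*, *Pdia4* and *Sdf2l1* were higher in both TRC libraries than in both controls, by 0.59, 0.52 and 0.49 on the log2 scale, and *Herpud1* was lower in both, with a log2 fold change of -0.50, none of them past the threshold. In all, 5 of the 10 did not overlap between the groups, where 60.6% of all genes tested did not. At an unadjusted p under 0.05 there were 4 of the 10 (3 higher and 1 lower in TRCs), where 28.0% of all genes tested passed in either direction. The 10 genes had a median log2 fold change of 0.20, and all genes tested had one of 0.0034. Without control 1 the median of the 10 was -0.13 and without control 3 it was 0.67, so its direction rests on control 1. In bulk RNA, a change in the number of cells that express a gene and a change in RNA per cell cannot be told apart.

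**Figure D1:**
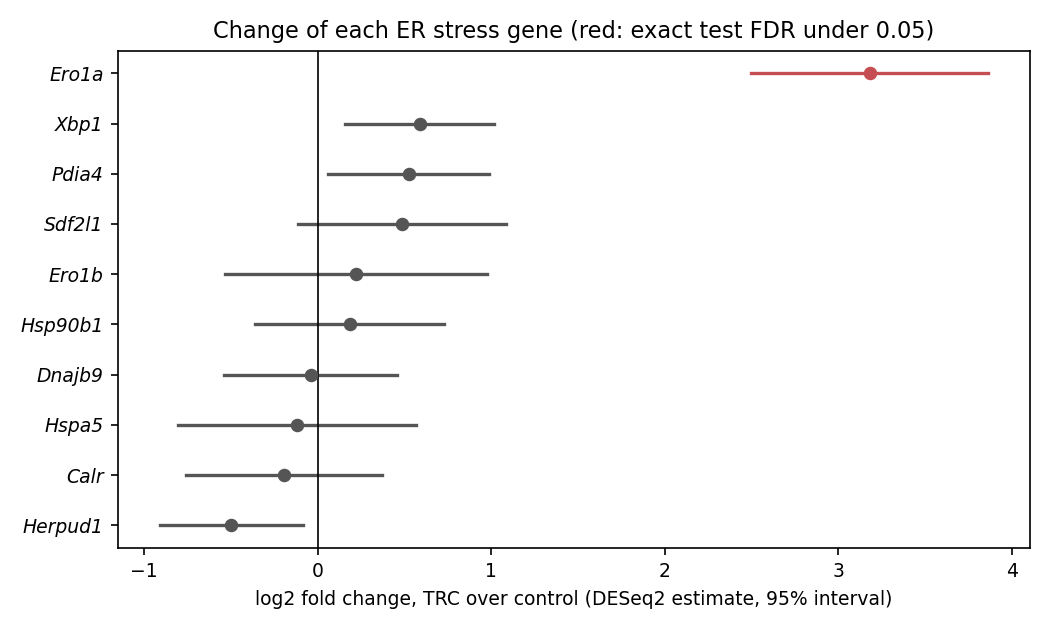
Log2 fold change of each of the 10 genes (TRC over control, x axis) as estimated by DESeq2 with its 95% interval, 2 libraries per group, with genes past an FDR of 0.05 in edgeR's exact test in red. *Ero1a* stands at 3.18 and the other 9 genes lie between -0.50 and 0.59.

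*Ero1a* (ENSMUSG00000021831, chr14:45283087-45318771 of GRCm38, minus strand) codes for the oxidase that reoxidizes protein disulfide isomerases. It had 429 CPM in control 1 and 242 CPM in control 3, against 2041 CPM in TRC 1 and 4024 CPM in TRC 3, which rests on 19052, 8526, 84825 and 167407 counts. Both TRC libraries were above both controls, and TRC 3 was the higher of the TRCs, while control 1 was the higher of the controls. Control cells averaged 335 ± 132 CPM (SD, n = 2), and TRCs averaged 3032 ± 1402 CPM (SD, n = 2). The rise was 3.18 on the log2 scale (SE 0.35), with a 95% interval for the fold from 5.65 to 14.6 and an FDR of 7.57e-15 in edgeR's exact test. By p-value it ranked 25 among the 11483 genes tested, and by log2 fold change it ranked 50. When any 1 library was left out, the rise lay between 2.61 and 3.65 and passed the threshold. The quasi-likelihood test of edgeR also called *Ero1a* (FDR 0.0101) and 0 of the other 9 genes, and it called 9.18% of all genes tested.

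The promoter window of *Ero1a* was read because the gene is known both as a folding enzyme and as a hypoxia gene. The windows are those of RefSeq transcript starts (GRCm38.p6), from 250 bases before to 50 bases after the start. All 10 genes matched a window, and the motifs were chosen after the values had been seen. The window of *Ero1a* held none of the 3 unfolded protein response motifs searched, which are described below. These motifs are rare, at 0.119%, 0.0365% and 0.676% of all windows. The windows of *Pdia4*, *Dnajb9*, *Xbp1* and *Sdf2l1* held none of them either, so their absence does not set *Ero1a* apart. In the GENCODE annotation *Dnajb9* begins 258 bases before its RefSeq start, and *Pdia4* begins after its own. The windows of these genes may therefore miss the promoter of another start. The *Ero1a* window held the core of the hypoxia response element, ACGTG or GCGTG, at 3 positions on either strand. A core of this kind occurs in 43.8% of all 32851 windows and in those of 8 of the 10 genes, so it does not set *Ero1a* apart. In the GENCODE annotation the gene begins 199 bases before the RefSeq start, so that all 3 positions lie inside the annotated gene there. The stretches are printed with the core in capitals, each 5′ to 3′ on the strand that carries it.
*Ero1a* core at -128 to -124 (chr14:45318684-45318712, minus strand): ccggaggcgggtGCGTGagcggggcgcgc
*Ero1a* core at -88 to -84 (chr14:45318644-45318672, minus strand): cgcccgaggctcGCGTGgacagaggcgcg
*Ero1a* core at -63 to -59 (chr14:45318619-45318647, plus strand): cctcccctgcggACGTGcagcggcgcgcg

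*Ero1b* (ENSMUSG00000057069, chr13:12565874-12611396, plus strand) codes for the paralog of *Ero1a* that is best known from secretory tissues such as the pancreas. It had 6.30 CPM in control 1, 11.6 CPM in control 3, 11.4 CPM in TRC 1 and 9.42 CPM in TRC 3. The groups overlapped, and both TRC libraries lay between the controls. Its log2 fold change of 0.22 had a 95% interval from -0.54 to 0.97 (FDR 0.787, edgeR's exact test), so a rise of the size found for *Ero1a* lies outside the interval. It was -0.16 without control 1 and 0.72 without control 3. Within a library, *Ero1a* exceeded *Ero1b* by a ratio of CPM of 68.0 and 20.8 in the controls and of 179 and 427 in TRCs. The ratio did not overlap between the groups and differed by 2.88 on the log2 scale. Its two-sided exact permutation p was 0.333 (0.583 after adjustment over 7 ratios), the smallest that 2 libraries against 2 can give.

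*Pdia4* (ENSMUSG00000025823, chr6:47796141-47813430, minus strand) codes for a protein disulfide isomerase that works in a complex with ER chaperones. Its levels were 278 CPM and 398 CPM in control 1 and 3, and 509 CPM and 464 CPM in TRC 1 and 3. Both TRC libraries were above both controls, as they were for 30.2% of all genes tested. The log2 fold change of 0.52 (SE 0.24) had a 95% interval from 0.061 to 0.99 and an FDR of 0.145 in edgeR's exact test. The ratio of *Ero1a* to *Pdia4* was 1.54 and 0.606 in the controls and 4.01 and 8.66 in TRCs. This ratio of RNA levels was thus higher in both TRC libraries than in either control (log2 difference 2.61, exact permutation p = 0.333).

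**Figure D2:**
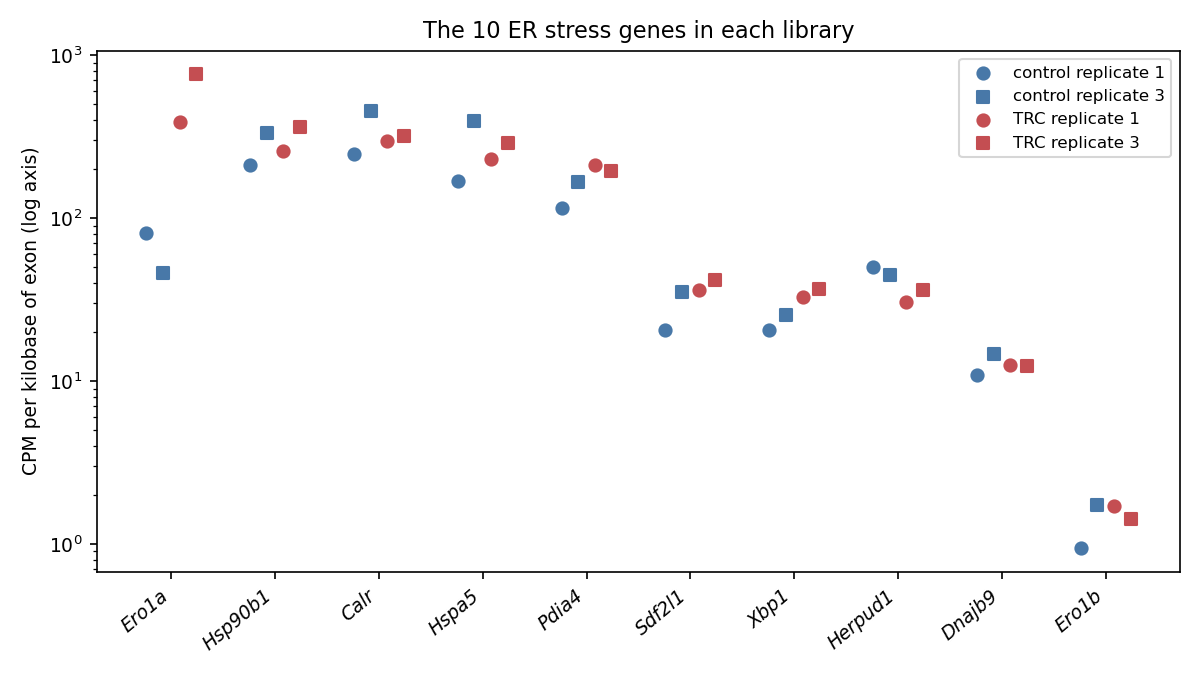
Level of each of the 10 genes in each of the 4 libraries, in CPM per kilobase of exon on a log axis, with 1 point per library. The *Ero1a* points of the TRC libraries, at 386 and 761, lie above its control points at 81.1 and 45.7, while the points of *Hspa5*, *Hsp90b1* and *Calr* mix.

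*Hspa5* (ENSMUSG00000026864, chr2:34771970-34777547, plus strand) codes for BiP and is the usual readout of the unfolded protein response. It had 709 CPM in control 1 and 1670.2 CPM in control 3, against 975 CPM in TRC 1 and 1218 CPM in TRC 3. Both TRC libraries lay between the controls, which differed by 1.23 on the log2 scale. Between the groups *Hspa5* differed by -0.12 on the log2 scale (SE 0.35, FDR 0.863 in edgeR's exact test) with a 95% interval from -0.81 to 0.57. Without control 1 it was -0.61 and without control 3 it was 0.62, and without TRC 1 it was 0.029.

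*Hsp90b1* (ENSMUSG00000020048, chr10:86690209-86705509, minus strand) codes for GRP94, the Hsp90 chaperone of the ER. Its span overlaps an antisense gene, *1810014B01Rik*, that had 73 to 146 counts per library, against 37991 or more for *Hsp90b1*. The levels of *Hsp90b1* were 854 CPM and 1344 CPM in the controls and 1046 CPM and 1454 CPM in TRCs. The groups overlapped, and the library numbered 3 was the higher in each. The difference was 0.19 on the log2 scale with a 95% interval from -0.36 to 0.73 (FDR 0.721, edgeR's exact test). It was -0.11 without control 1, -0.069 without TRC 3 and 0.55 without control 3.

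*Calr* (ENSMUSG00000003814, chr8:84841850-84846934, minus strand) codes for calreticulin, a chaperone of glycoproteins that also binds calcium. It had 717 CPM and 1307 CPM in the controls, with both TRC libraries between them at 853 CPM and 920.0 CPM, and a log2 fold change of -0.19 (95% interval -0.76 to 0.37, FDR 0.718 in edgeR's exact test). Without control 3 this became 0.30, and without control 1 it was -0.56. The proportions among the 3 abundant chaperones were also compared within each library. The ratio of *Hsp90b1* to *Hspa5* differed by 0.20 and that of *Calr* to *Hspa5* by -0.13 on the log2 scale between the groups, and both ratios overlapped. Without control 3 the first was -0.090, and without control 1 the latter was 0.054. Set against *Hspa5* in the same library, *Ero1a* was at 0.604 and 0.145 in the controls and at 2.09 and 3.30 in TRCs (log2 difference 3.15, exact permutation p = 0.333).

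*Sdf2l1* (ENSMUSG00000022769, chr16:17130138-17132383, minus strand) codes for a small ER protein that works with the cochaperones of BiP. It was at 22.7 CPM and 39.2 CPM in the controls and at 40.3 CPM and 46.3 CPM in TRCs, so that control 3 and TRC 1 nearly met. Its difference was 0.49 on the log2 scale (SE 0.31) with an FDR of 0.267 in edgeR's exact test. Without control 3 it was 0.93 with an FDR of 0.0385, and without control 1 it was 0.14 with an FDR of 0.799. *Dnajb9* (ENSMUSG00000014905, chr12:44205559-44210326, minus strand) codes for ERdj4, a cochaperone that brings BiP to misfolded proteins and to IRE1. Its levels in TRCs, 31.8 CPM and 31.6 CPM, lay between the 27.7 CPM and 37.6 CPM of the controls. The difference of -0.04 on the log2 scale had a 95% interval from -0.54 to 0.46 (FDR 0.941, edgeR's exact test). It was -0.25 without control 1 and 0.19 without control 3.

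**Figure D3:**
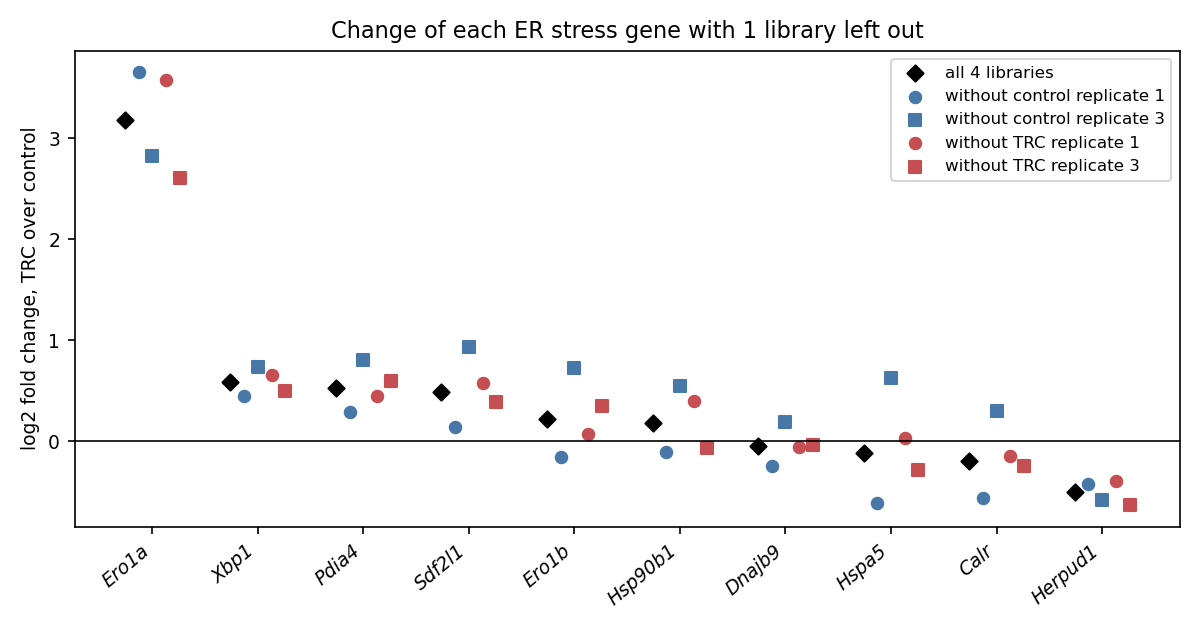
Log2 fold change of each of the 10 genes (TRC over control) with all 4 libraries and without each of them. The points of *Ero1a* lie between 2.61 and 3.65, and those of *Hspa5* spread from -0.61 without control 1 to 0.62 without control 3.

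Several of these genes are known for a promoter element of the unfolded protein response. The ER stress response element (ERSE), the boxes CCAAT and CCACG with 9 bases between them, which ATF6 and XBP1 are known to use, was found in 39 of the 32851 promoter windows on either strand (0.119%), and 4 of the 10 genes are among those: *Hspa5*, *Hsp90b1* (at 2 positions), *Ero1b* and *Calr*. A match is a description of the sequence, and *Hspa5*, *Hsp90b1* and *Calr* are textbook examples of this element. Every ERSE holds a CCAAT box, and 37.4% of windows hold CCAAT. The ERSE matches of *Hsp90b1* and *Calr* also overlap a GCGTG core. In the GENCODE annotation *Hspa5* begins 120 bases before its RefSeq start, so its match lies inside the annotated gene there. The stretches are given with the fixed bases in capitals, 5′ to 3′ on the strand on which the motif reads.
*Hspa5* at -65 to -47 (chr2:34772020-34772048, plus strand): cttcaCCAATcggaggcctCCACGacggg
*Hsp90b1* at -212 to -194 (chr10:86705633-86705661, minus strand): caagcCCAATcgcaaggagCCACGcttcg
*Hsp90b1* at -107 to -89 (chr10:86705528-86705556, plus strand): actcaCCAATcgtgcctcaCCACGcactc
*Calr* at -162 to -144 (chr8:84847070-84847098, plus strand): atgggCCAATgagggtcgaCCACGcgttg
*Ero1b* at -201 to -183 (chr13:12565677-12565705, minus strand): ggcggCCAATgaggcgggaCCACGaggcc

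These 4 genes had log2 fold changes of -0.12, 0.19, 0.22 and -0.19 (*Hspa5*, *Hsp90b1*, *Ero1b* and *Calr*), and all were higher in control 3 than in control 1. Of the 37 genes with an ERSE in a window, 19 were tested, with a median log2 fold change of 0.16. Of the 19, 3 rose and 0 fell, where 8.81% of all genes tested rose and 7.05% fell. Together with *Canx*, *Creld2*, *Dnajc3*, *Pdia6* and *Syvn1*, 9 of the 19 belong to the gene lists used here. Of these 9, 0 passed the threshold, where 15.9% of all genes tested did, so this count does not set them apart. All 9 were higher in control 3 than in control 1, as were 12 of the 19, where 50.4% of all genes tested were. Of 4 tested list genes with the second form of the element, ERSE-II (described below), 1 was higher in control 3. The element TGACGTGG, bound by spliced XBP1, was in 0.676% of windows and in none of the 10.

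*Herpud1* (ENSMUSG00000031770, chr8:94386438-94395377, plus strand) codes for an ER membrane protein that organizes the degradation of misfolded proteins. It was at 116 CPM and 104 CPM in the controls and at 71.3 CPM and 84.7 CPM in TRCs. Both TRC libraries were below both controls, as they were for 30.4% of all genes tested, and *Herpud1* was the only 1 of the 10 placed so. TRCs differed from controls by -0.50 on the log2 scale (SE 0.21), with a 95% interval from -0.91 to -0.086 and an FDR of 0.118 in edgeR's exact test. Its window held the second form of the element, ERSE-II (ATTGG and CCACG with 1 base between them, 0.0365% of windows), which overlaps an ACGTG core, and a match to TGATGNAA, the core of sites shared by C/EBP and ATF factors (3.97% of windows). Both are shown with the fixed bases in capitals.
*Herpud1* ERSE-II at -52 to -42 (chr8:94386368-94386396, plus strand): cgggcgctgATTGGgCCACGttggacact
*Herpud1* C/EBP and ATF core at -112 to -105 (chr8:94386307-94386334, minus strand): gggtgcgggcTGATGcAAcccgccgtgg

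*Xbp1* (ENSMUSG00000020484, chr11:5520659-5525893, plus strand) had 67.2 CPM and 82.5 CPM in the controls and 106 CPM and 119 CPM in TRCs. The groups did not overlap, and each control was below each TRC library. The log2 fold change was 0.59 (SE 0.22) with a 95% interval from 0.16 to 1.02 and an FDR of 0.0612 in edgeR's exact test. DESeq2's Wald test gave the same log2 value with an FDR of 0.0428, so the call depends on the tool. DESeq2 called 17.7% of all genes tested, and *Ero1a* and *Xbp1* of these 10. Counts per gene do not separate spliced from unspliced *Xbp1* mRNA, and the activity of the factor was not measured. Relative to *Hspa5*, *Xbp1* was higher in both TRC libraries than in both controls, by 0.59 on the log2 scale (exact permutation p = 0.333). The groups nearly met, with a ratio of 0.0948 in control 1 and 0.0977 in TRC 3. When any 1 library was left out, the log2 difference lay between 0.12 and 1.06.

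Per kilobase of exon, the mean level in control cells was highest for *Calr* (351 CPM per kilobase), followed by *Hspa5* at 281 and *Hsp90b1* at 273, *Pdia4* at 141, *Ero1a* at 63.4 and *Herpud1* at 47.3. *Sdf2l1* at 27.9, *Xbp1* at 23.0, *Dnajb9* at 12.8 and *Ero1b* at 1.35 CPM per kilobase came last. In TRCs *Ero1a* was at the head of the order with a mean of 574 CPM per kilobase. Its 2 TRC libraries, at 386 and 761, were above the highest library of any other of the 10 genes in TRCs, the 361 CPM per kilobase of *Hsp90b1*. *Hsp90b1*, *Calr* and *Hspa5* followed at 310.0, 308 and 259 CPM per kilobase in TRCs. Both TRC libraries of *Calr* were above both of *Hspa5*, while those of *Hsp90b1* overlapped with each. *Sdf2l1* at 39.1 had both TRC libraries above those of *Herpud1* at 33.4, by a small margin (36.345 against 36.295 CPM per kilobase at the nearest), and *Xbp1* at 34.6 overlapped with each. *Pdia4* stood between these sets at 203 CPM per kilobase in TRCs.

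Other genes of ER folding were read from 7 lists. Of these genes, 136 that are not among the 10 were tested, and 10 of them rose and 0 fell, where 8.81% of all genes tested rose and 7.05% fell, with a median log2 fold change of 0.051. At an unadjusted p under 0.05 there were 20 higher and 5 lower, where 28.0% of all genes tested passed in either direction. These 10 came from 6 of the 7 lists and included no Hsp70 or Hsp90 chaperone. Their call depended on the test, since the quasi-likelihood test of edgeR called 5 of the 136 and DESeq2 called 16. Of all genes tested, these 2 tests called 9.18% and 17.7%.

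Among the Hsp70 and Hsp90 chaperones of the ER and their cochaperones, 0 of 18 genes passed the threshold in edgeR's exact test, and 2 did so at an unadjusted p under 0.05. *Hyou1*, an exchange factor for BiP, had 213 CPM and 378 CPM in the controls and 236 CPM and 249.7 CPM in TRCs (log2 fold change -0.28, FDR 0.552). *Dnajc3*, which codes for the cochaperone p58IPK, had 180.2 CPM and 239 CPM in the controls and 352 CPM and 255 CPM in TRCs (log2 fold change 0.54, FDR 0.144 in edgeR's exact test). Without control 3 the list had 1 call.

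Among the oxidoreductases of the ER, 2 of 23 genes tested rose, *Ero1a* and the thioredoxin-like membrane protein gene *Tmx4*, and the median log2 fold change was 0.056. *Tmx4* rose from 43.4 CPM and 43.6 CPM to 63.3 CPM and 86.9 CPM (log2 fold change 0.79, FDR 0.0107 in edgeR's exact test). *P4hb* and *Pdia3*, the disulfide isomerase genes with the highest CPM of the list beside *Ero1a*, did not pass. *P4hb*, whose product PDI is the main substrate of ERO1 and a subunit of collagen prolyl hydroxylase, was at 879.9 CPM and 1191 CPM in the controls and at 1146 CPM and 2443 CPM in TRCs (log2 fold change 0.79, FDR 0.0823 in edgeR's exact test). It passed without TRC 1 (log2 fold change 1.23, FDR 0.00179) and was at 0.15 without TRC 3. *Tmx4* also passed in the quasi-likelihood test (FDR 0.0463), and in 2 of the 4 fits that leave out a library. *Pdia3* was at -0.11 on the log2 scale (FDR 0.840).

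The glycoprotein folding cycle and degradation lists held 3 genes that rose. *Edem1* and *Edem2*, whose products mark misfolded glycoproteins for degradation, had log2 fold changes of 0.63 (FDR 0.0459) and 0.64 (FDR 0.0282) and were the 2 genes called of 14 tested. Of 25 degradation genes tested, *Selenok*, a selenoprotein gene of the ER membrane, was the only 1 called (log2 fold change 0.72, FDR 0.0196). None of these 3 passed in the quasi-likelihood test (FDR 0.0756 for *Edem1*, 0.0516 for *Edem2* and 0.0537 for *Selenok*), and in the 4 fits that leave out a library they passed in 0, 1 and 1. *Vcp*, the segregase that draws substrates out of the ER, and its cofactor *Nploc4* were at -0.38 (FDR 0.352) and -0.62 (FDR 0.0668). *Nploc4* passed in DESeq2's Wald test with an FDR of 0.0475 and, in edgeR's exact test, without control 1 (FDR 0.0142).

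Of the 29 genes of the translocon, the signal peptidase and the oligosaccharyltransferase, *Tusc3* (log2 fold change 0.75, FDR 0.0113) and *Dad1* (0.63, FDR 0.0435) rose, and both code for parts of the oligosaccharyltransferase. *Dad1* did not pass in the quasi-likelihood test (FDR 0.0699), and *Tusc3* did (FDR 0.0413). Of 20 prolyl isomerase and calcium handling genes tested, *Fkbp14* and *Rcn3* rose. *Fkbp14*, a prolyl isomerase known for its part in collagen folding, rose from 18.9 CPM and 20.5 CPM to 59.6 CPM and 51.8 CPM (2.82-fold, FDR 1.25e-07 in edgeR's exact test). *Rcn3*, a calcium-binding chaperone also known from collagen secretion, rose from 0.472 CPM and 0.113 CPM to 4.40 CPM and 1.66 CPM (log2 fold change 3.32, SE 0.85), on 21 and 4 counts in the controls. *Fkbp14* and *Rcn3* also passed in the quasi-likelihood test and in DESeq2's Wald test. *Rcn3* was under 1 CPM in both controls, so it entered these tests only through its TRC libraries, and its calls are conditional on that.

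**Figure D4:**
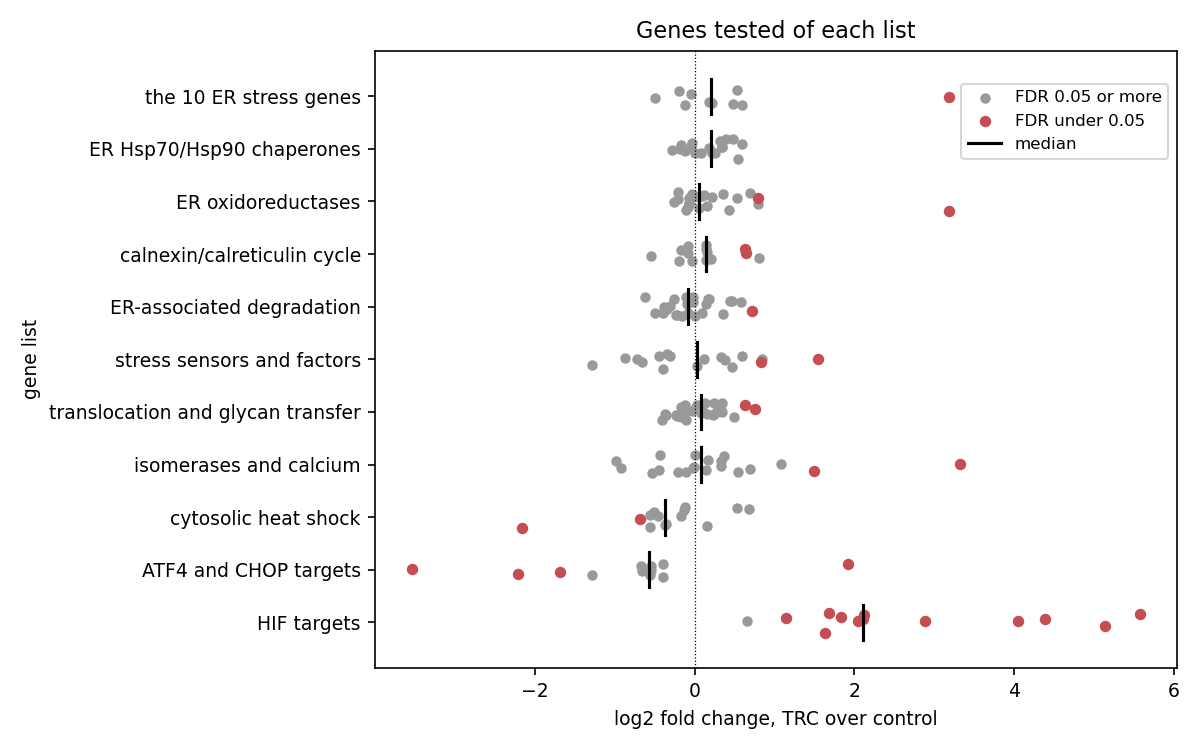
Log2 fold change (TRC over control) of each gene tested in each list, 1 point per gene, with called genes (FDR under 0.05, edgeR's exact test) marked. The ER lists centre near 0 with medians between -0.080 and 0.20, while 13 of 13 genes of the HIF target list lie above 0 with a median of 2.11.

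Of the 17 sensors and factors of the unfolded protein response, 2 rose and 0 fell, where 8.81% of all genes tested rose. Their log2 fold changes ran from -1.28 to 1.54, 9 positive and 8 negative, with a median of 0.030. *Eif2ak3*, which codes for PERK, rose from 70.3 CPM and 79.4 CPM to 149.7 CPM and 117 CPM (log2 fold change 0.83, FDR 0.00567 in edgeR's exact test). *Creb3l1*, a membrane-bound factor known as OASIS, rose from 2.41 CPM and 1.45 CPM to 4.33 CPM and 6.92 CPM (log2 fold change 1.54, FDR 0.0153). In the quasi-likelihood test *Eif2ak3* passed (FDR 0.0382) and *Creb3l1* did not (FDR 0.0680). *Ern1*, the IRE1 gene, was at -0.30 and *Atf6* at 0.34 on the log2 scale, with both groups overlapping, and *Atf6b* was at -0.44 with an FDR of 0.183. Of the other genes of this list, *Wfs1* (0.84, FDR 0.0885), *Creb3l2* (0.47), *Mbtps1* (0.38), *Mbtps2* (0.12) and *Creb3* (0.03) had positive values, and *Rtcb*, the ligase that joins the *Xbp1* exons (-0.35), and *Ppp1r15b* (-0.39) had negative ones. *Wfs1* passed in DESeq2's Wald test (FDR 0.0417) and without control 1 (FDR 0.0383).

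Genes of the PERK arm differed widely between the control libraries. *Atf4* was at 837 CPM in control 1 and 465 CPM in control 3, against 299 CPM and 492 CPM in TRCs (log2 fold change -0.72, FDR 0.110 in edgeR's exact test). *Ddit3* had 31.0 CPM and 54.8 CPM in TRCs, between its control values, and differed by -0.88 on the log2 scale (SE 1.26). Without control 3 it was called lower in TRCs (log2 fold change -1.70, FDR 9.94e-06), and without control 1 it was called higher (1.19, FDR 0.0193). *Trib3*, an inhibitor induced by CHOP, was at 239 CPM and 25.4 CPM in the controls and at 24.9 CPM and 84.2 CPM in TRCs, and *Ppp1r15a*, which codes for GADD34, at 47.7 CPM and 14.9 CPM against 16.2 CPM and 23.6 CPM. Both had values below 0 with all libraries and without control 3, and above 0 without control 1.

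Control 1, in which 8 of the 10 ER genes had the lower control value, had the higher levels of ATF4 targets. Summed over the 13 ATF4 and CHOP targets, the level was 2890.2 CPM in control 1, 1303 CPM in control 3, 1172 CPM in TRC 1 and 1423 CPM in TRC 3. Of these genes, 1 rose (*Ddit4*, log2 fold change 1.91) and 3 fell (*Slc7a11* at -3.54, *Atf5* at -2.21 and *Cebpb* at -1.68), with a median of -0.58. *Atf5* (SE 1.16) did not pass in the quasi-likelihood test (FDR 0.0944) or in DESeq2 (FDR 0.184) and was at -0.32 without control 1, and *Cebpb* did not pass in the quasi-likelihood test (FDR 0.109) and was at -0.46 without control 1. Without control 3 there were 10 calls, 1 higher and 9 lower, and without control 1 there were 3, 2 higher and 1 lower, with a median of 0.33. Whether the state of control 1 plays a part in the values of the 10 ER genes was not tested.

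**Figure D5:**
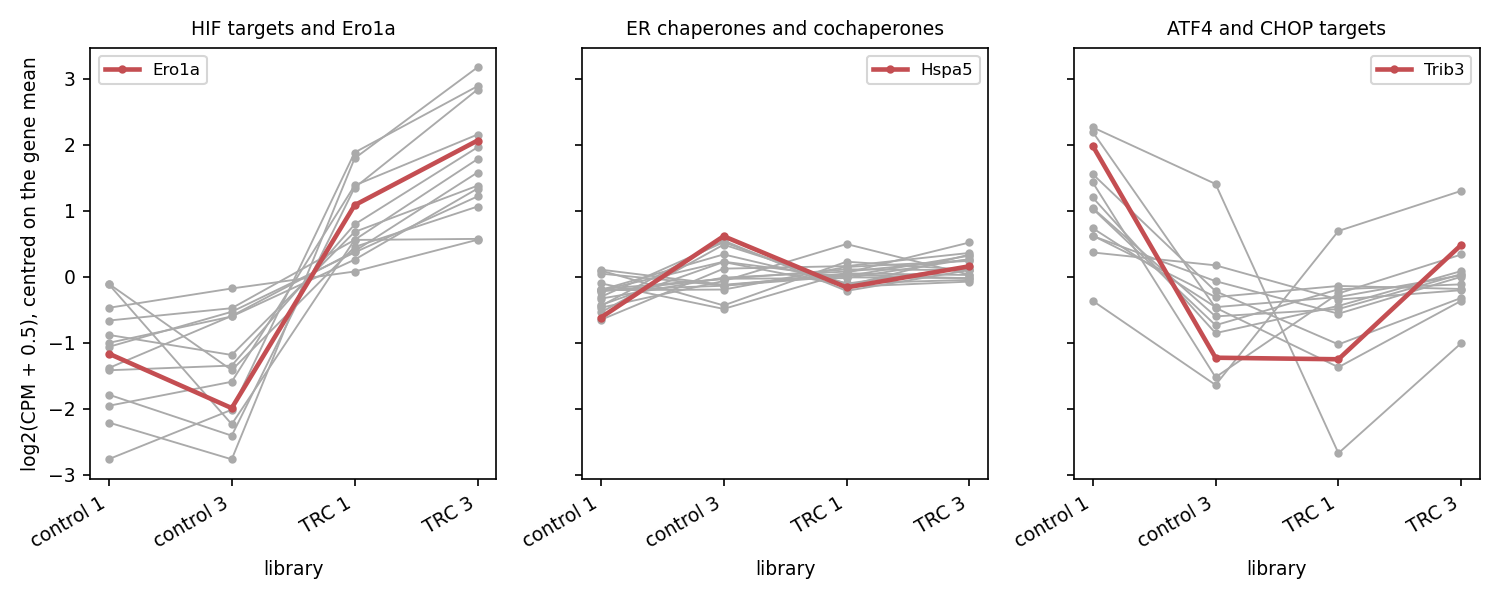
Levels of genes in each of the 4 libraries, relative to the gene's own mean over the libraries on the log2 scale, for the HIF targets with *Ero1a*, the ER chaperones and the ATF4 and CHOP targets, with 1 gene in red in each panel. The *Hspa5* line is highest in control 3, all 13 lines of ATF4 and CHOP targets are higher in control 1 than in control 3, and all 13 HIF target lines are higher in both TRC libraries than in both controls; lines join the values of a gene and imply no order of libraries.

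Genes of the response to low oxygen rose beside *Ero1a*. HIF factors activate genes in low oxygen, and 13 known targets, which did not include *Ero1a*, were tested. Like all lists, this one was chosen with earlier results of these data known. Of the 13 genes, 12 rose and 0 fell, where 8.81% of all genes tested rose. Their median log2 fold change was 2.11. All 13 were higher in both TRC libraries than in both controls, where 30.2% of all genes tested were. All 13 were also higher in TRC 3 than in TRC 1. *Ero1a* was higher in TRC 3 by 0.98 on the log2 scale, as were 7 of the 10 ER stress genes by some amount, where 50.1% of all genes tested were. The 4 of smallest FDR were *Bnip3* (log2 fold change 5.13), *Ankrd37* (5.58), *Pdk1* (4.39) and *Egln3* (4.05). *Ero1a*, at 3.18, was within the range of these 13 genes, from 0.66 to 5.58, and above that of the other 9 ER stress genes. Oxygen was not measured in these samples, and a part of hypoxia in the rise of *Ero1a* was not tested.

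Heat shock genes of the cytosol, which answer to unfolded proteins outside the ER, gave 0 genes that rose and 2 that fell of 14 tested, with a median log2 fold change of -0.36. *Hspb1* fell from 4.18 CPM and 2.04 CPM to 0.818 CPM and 0.577 CPM (log2 fold change -2.16, FDR 0.00181 in edgeR's exact test), and *Hsf1*, the factor that controls the response, fell from 68.1 CPM and 62.8 CPM to 39.2 CPM and 42.2 CPM (log2 fold change -0.69, FDR 0.0212). Both passed in the quasi-likelihood test. With the replicate number as a block in that test, *Hspb1* passed (FDR 0.0454) and *Hsf1* did not (FDR 0.0624). Neither gene was called in every fit that leaves out a library. *Hspb1* rested on 34 and 24 counts in TRCs. It was under 1 CPM in both TRC libraries, so it entered these tests only through its control libraries, and its calls are conditional on that. When 1 TRC library was left out, the log2 fold change of *Hspb1* lay between -2.44 and -1.93. When 1 control library was left out, *Hspb1* did not pass the filter and was not tested. The log2 fold change of *Hsf1* lay between -0.75 and -0.63 when any 1 library was left out. In 12 of the 15 genes of this list the level was higher in control 3 than in control 1, the same side as in 8 of the 10 ER genes.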

How the data were processed

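RNA from 2 parental control and 2 TRC samples was sequenced in single-end mode. The authors demultiplexed with CASAVA 1.8.2, trimmed with Trimmomatic 0.35, aligned to GRCm38 with TopHat2 2.1.0 (Bowtie2 2.2.6, SAMtools 1.3) and counted with htseq-count. The deposited files thus hold unnormalized counts of reads for each Ensembl gene. The strand setting of htseq-count is not given in the sources used here. Between 20.2% and 29.0% of alignments were on no gene, ambiguous or not unique, and these totals were removed first.

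Symbols, positions and exon lengths came from GENCODE M21. Genes under 1 CPM in at least 3 of 4 libraries were removed, and 11483 were tested after TMM normalization with edgeR 4.0.16's exact test under R 4.3.3 (tagwise dispersions, Benjamini-Hochberg FDR under 0.05), as in the study's methods. Standard errors and intervals came from DESeq2 1.42.0, and ratios were compared by two-sided exact permutation tests. The code was tested on simulated data. Python 3.11.15 and matplotlib 3.10.9 served for the plots.

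The 10 genes and all lists were chosen with earlier results of these data known. Of 214 list symbols 213 were matched (*Ca9* was not). Named beside the 10 were up to 4 called genes of smallest FDR per list (with fewer than 2, the 2 genes of highest mean CPM), all sensors and factors of the unfolded protein response, and the 4 nearest patterns of *Ero1a*, *Hspa5* and *Herpud1*. Exceptions are genes named with a motif, as an overlapping antisense gene or as a cell type marker at 0. Alternatives were other filters, DESeq2 size factors, library size only, the quasi-likelihood test (also with a replicate block), DESeq2's Wald test, an FDR of 0.01 and each library left out in turn, where a lone library is assumed to vary like the other group. Samples with the same number did not deviate together (r = 0.027 across genes, 2 pairs), so the numbers were not used as pairs.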

Additional observations from a re-analysis of the deposited data

How the results depend on the processing

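*Ero1a* kept its direction and its call under every alternative tried. Of the values recomputed, 745 were counted as unchanged, 54 lost and 12 gained a call, 60 moved and 29 changed sign. The 745 include genes that were called under neither setting. They also include the replicate block of the 7 ratios, which gives the reported difference by construction. Of all genes, the quasi-likelihood test called 1054 and the same test with a replicate block 785 (784 of them among the 1822), while leaving out a library gave 704 to 1965. Of the 10 ER stress genes, DESeq2 called 2 (*Xbp1* at 0.59, FDR 0.0428) and leaving out a library 1 to 2, with a median of -0.13 to 0.67. For the other genes of the 7 ER lists the quasi-likelihood test called 5, the replicate block 2 (*Fkbp14* and *Rcn3*), DESeq2 16 and leaving out a library 2 to 13. With the replicate block, *Hspa5* was at 0.0016, *Hspa8* at 0.018 and *Manf* at 0.051 on the log2 scale, where the reported values are below 0. Leaving out a library moved the log2 fold change of *Hspa5* between -0.61 and 0.62, *Hsp90b1* between -0.11 and 0.55, *Dnajb9* between -0.25 and 0.19, *Ero1b* between -0.16 and 0.72, *Calr* between -0.56 and 0.30 and *Sdf2l1* between 0.14 and 0.93. Among other genes the range was -0.64 to 0.19 for *Hyou1*, -0.43 to 0.29 for *Pdia3*, -0.75 to 0.33 for *Ern1*, -0.065 to 0.85 for *Atf6*, -1.70 to 1.19 for *Ddit3*, -0.0089 to 0.23 for *Mbtps2*, -1.27 to 0.41 for *Ppp1r15a*, -2.41 to 1.10 for *Trib3*, -0.62 to 0.65 for *Hspa8*, -0.46 to 0.57 for *Manf*, -0.60 to 0.40 for *Creld2* and -0.33 to 0.63 for *Ksr1*. The log2 difference of the ratio of *Hsp90b1* to *Hspa5* lay between -0.090 and 0.49, that of *Calr* to *Hspa5* between -0.31 and 0.054 and that of *Herpud1* to *Hspa5* between -1.20 and 0.19. The cause of these changes was not tested. With 2 libraries per group, a spread such as that of *Hspa5* in the controls leaves a wide interval whatever the depth.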

Other observations

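The genes whose pattern over the 4 libraries was nearest to that of *Ero1a*, by the root mean square distance of centred log2(CPM + 0.5) values among 8917 genes, were *H2-K1* (0.078), *Plekha2* (0.11), *Hpse* (0.14) and *Gsta2* (0.17). *H2-K1*, a class I antigen presentation gene with near-identical relatives whose reads may be split, had 27.9 CPM and 15.2 CPM in the controls and 151 CPM and 263 CPM in TRCs. *Plekha2* had 9.74 CPM and 5.92 CPM against 49.6 CPM and 116 CPM. *Hpse*, which codes for heparanase, had 24.5 CPM and 11.3 CPM against 91.8 CPM and 222 CPM, and *Gsta2*, a glutathione transferase gene with close paralogs, had 7.74 CPM and 2.92 CPM against 31.6 CPM and 59.2 CPM. None of these 4 is in the ER or HIF lists used here.

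The genes nearest to *Hspa5* were *Hspa8* (0.070), *Manf* (0.081), *Creld2* (0.10) and *Ksr1* (0.14). *Manf* and *Creld2* code for secreted ER proteins that are known targets of the unfolded protein response. *Manf* had 90.7 CPM in control 1 and 185 CPM in control 3, with 123 CPM and 147 CPM in TRCs between them, and *Creld2* had 39.9 CPM and 79.9 CPM with 46.9 CPM and 58.4 CPM between them. *Hspa8*, the constitutive Hsp70 of the cytosol, had the same order, with 973 CPM and 2349 CPM in the controls and 1465 CPM and 1600.4 CPM in TRCs. These genes were selected for their likeness to *Hspa5*, so that their shared order is no finding, and *Hsp90b1* and *Sdf2l1* do not share it.

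The genes nearest to *Herpud1* were *Wars* (0.018), *2310061I04Rik* (0.024), *Trub2* (0.024) and *Ppic* (0.027). *Wars*, a tRNA synthetase gene, had 185 CPM and 161 CPM in the controls and 111 CPM and 133 CPM in TRCs, and *Ppic*, a prolyl isomerase gene of the ER list, had 101 CPM and 94.3 CPM against 61.1 CPM and 73.8 CPM. These distances are descriptions over 4 libraries, and many genes with a difference between the groups come close to one another at this number.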
